A study of Mus musculus with 14 samples.

Results

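Region differences were measured between 6 bulk RNA-seq libraries of mouse cerebellum and 4 of mouse cerebral cortex, out of 14 libraries in the series. The cerebellar libraries comprised 3 of CARIP-/- (knockout) and 3 of wild-type mice, and the cortical ones, titled Cerebrum, 2 of each genotype, numbered 1 and 2 in the knockout and 2 and 3 in the wild type. All were C57BL/6, and the labels give no age, sex, treatment or dissection bounds, nor which gene CARIP stands for, and no level is given for it here. Total RNA was sequenced, and the values deposited are whole-number read counts per gene, 20.1 to 38.8 M reads per library (median 25.5 M), of which mitochondrial genes took 1.92% to 3.67%. Levels below are CPM, reads of a gene per M reads of the TMM-scaled library total, and cortical values are listed in the order knockout 1, knockout 2, wild type 2, wild type 3. Log2 fold changes are cerebellum minus cortex from 1 edgeR fit to all 24257 genes kept, with genotype as an additive term. That the samples of a group are separate animals is not stated, so p-values measure the spread between these samples.

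Most neurons of the cerebellum are small glutamatergic granule cells, whose axons contact Purkinje cells, the GABAergic output neurons of the cerebellar cortex. Local inhibition comes from Golgi cells and molecular layer interneurons, and Bergmann glia are specialised astrocytes that line Purkinje cells. The cerebral cortex holds layered glutamatergic neurons born in the dorsal telencephalon, and GABAergic interneurons that migrate in from the ventral telencephalon. Because the samples are bulk tissue, more cells of a type and more RNA per cell cannot be told apart in any value below.

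Both tissue labels fitted the defining markers: the 6 cerebellar libraries held 304 to 524 CPM of Gabra6 and 0.844 to 1.99 CPM of Tbr1, and the 4 cortical ones at most 0.344 CPM of Gabra6 and 151 to 243 CPM of Tbr1. In addition, 3 libraries held transcripts that the others of their region lacked. Hoxb5, a hindbrain patterning gene, stood at 4.51 and 4.32 CPM in knockout cerebellum 2 and wild-type cerebellum 2 and at 0 to 0.134 CPM in the other 4. Chat, the enzyme that makes acetylcholine, read 4.84 and 6.26 CPM in the same libraries against 0 CPM. Knockout cortex 2 held 44.5 CPM of Drd2 and 33.1 CPM of Adora2a, receptors of striatal projection neurons, against at most 1.29 and 2.02 CPM in the other cortical libraries, and 79.8 CPM of the thalamic factor Tcf7l2 against at most 11.3. Summed over the list of 20 brainstem markers, those 2 cerebellar libraries and that cortical one read 82.1, 139 and 112 CPM, and the other 7 read 18.7 to 26.1 CPM. Wild-type cerebellum 1 stood apart in another way: Ttr, the main transcript of choroid plexus, was at 6.95 CPM there and at 579 to 1273 CPM in the other cerebellar libraries. Results were therefore also computed on the 7 libraries left without those 3, a choice made after seeing the data. The part of other brain tissue in any single result was not tested.

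**Figure D1:**
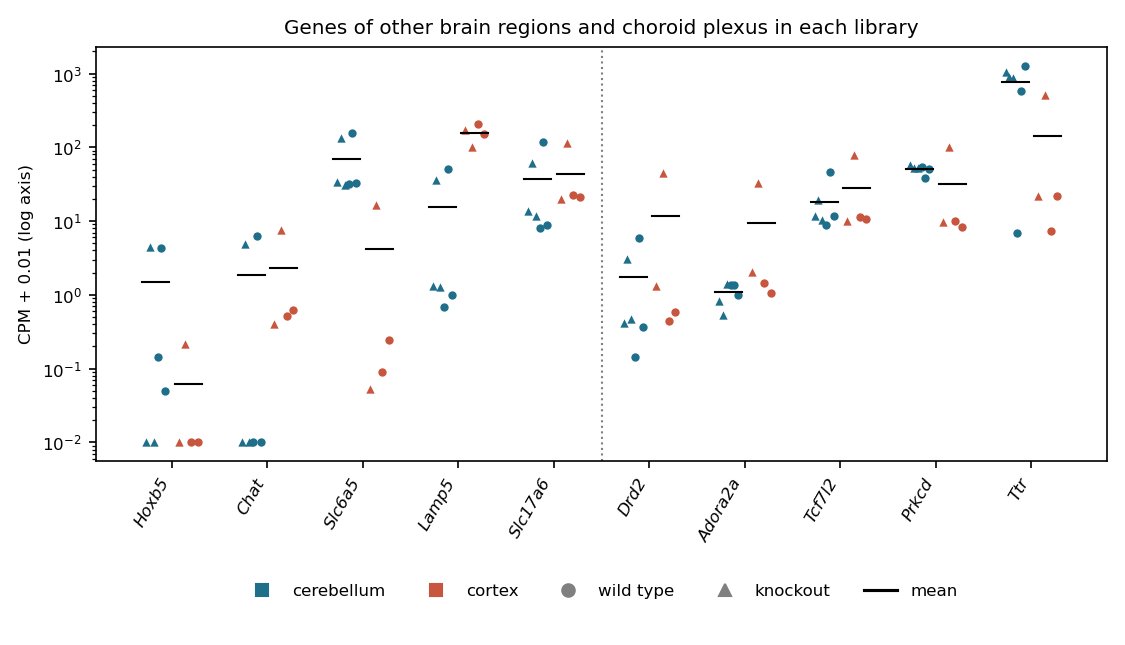
Level of 10 genes in each library (points, CPM + 0.01 on a log axis; triangles knockout, circles wild type; black lines, means). Left of the dotted line, 2 cerebellar libraries stand above the other 4 in brainstem genes such as Hoxb5 and Chat; right of it, 1 cortical library stands above the other 3 in Drd2 and Adora2a, and 1 cerebellar library is low in Ttr.

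Region was the main axis of the data. The first principal component took 75% of the variance and put the 6 cerebellar libraries at -74.6 to -22.9 and the 4 cortical ones at 85.4 to 91.1. Of 24257 genes tested, 10796 (44.5%) differed between regions at an adjusted p of 0.05, 5207 (21.5%) higher in cerebellum and 5589 (23%) higher in cortex. Against a difference of 2-fold or more, 2964 genes (12.2%) passed, 1137 (4.69%) higher in cerebellum and 1827 (7.53%) higher in cortex. In 8424 genes (34.7%) the 6 cerebellar and 4 cortical values did not overlap. Without the 3 libraries named above, 4095 of 24858 genes (16.5%) passed the 2-fold test. The median over all genes was 0.02 on the log2 scale. In the text, "rose" and "higher" refer to genes that passed the plain test unless the 2-fold test is named, and "cerebellum-high" and "cortex-high" mark the direction.

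**Figure D2:**
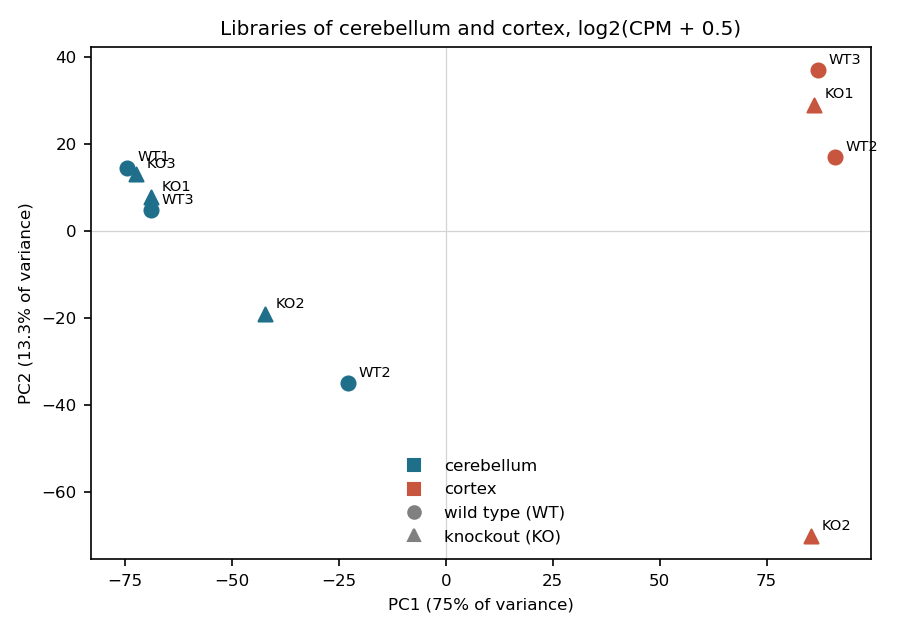
The 10 libraries on the first 2 principal components of log2(CPM + 0.5) over 18920 genes (triangles knockout, circles wild type, labels give genotype and number). Cerebellum lies left and cortex right on PC1; wild-type and knockout cerebellum 2 lie nearest to cortex at -22.9 and -42.3, and knockout cortex 2 lies lowest on PC2 at -70.

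The largest differences were in genes read at high level in cerebellum and nearly absent in cortex. Gabra6, the GABA-A receptor alpha subunit of granule cells, was lowest at 304, median 418 and highest at 524 CPM in cerebellum, and read 0.344, 0.0895, 0.0394 and 0 CPM in cortex. Every cerebellar library was far above every cortical one, a log2 difference of 11.76 (SE 0.47, adjusted p = 9.3e-08). Cbln3, a secreted cerebellin of granule cells, ran from 663 to 1070 CPM (median 805) in cerebellum and read 0.645, 0.716, 0.946 and 0.0776 CPM in cortex, a log2 difference of 10.41 (SE 0.44). Fat2, a giant protocadherin of granule cell axons, was the most abundant of these at 1320 to 2297 CPM (median 1709) against 2.02, 5.76, 3.07 and 1.75 CPM, a log2 difference of 9.08 (SE 0.45, adjusted p = 2.8e-07). Crtam, an adhesion receptor known from lymphocytes, stood at 53.8 ± 12.3 CPM (SD, n = 6) against 0.0845 ± 0.0508 (n = 4), a log2 difference of 9.25. Ppp1r17, a protein phosphatase inhibitor of Purkinje cells, differed by 8.91 with all 6 cerebellar libraries at 72.9 CPM or more and a highest cortical value of 0.686 CPM, in knockout 2. Nrk, a kinase of the germinal centre family, and Cnpy1, a regulator of fibroblast growth factor signalling at the midbrain and hindbrain border, followed at 8.63 and 8.46. The processed pseudogenes Mkrn1-ps1 and Phgdh-ps1 also led this side, at 26.2 ± 8.48 and 12.2 ± 2.86 CPM in cerebellum. Phgdh-ps1 had 3 reads in all of cortex against 1782 in cerebellum, a ratio of 428 with a counting interval of 146 to 2076. How reads that also match the parent genes were counted is not given, so the pseudogene values are uncertain.

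On the cortical side the leaders were forebrain transcription factors and synaptic genes. Dlx6os1, a noncoding RNA antisense to Dlx6, differed by -9.56, with the limit that reads of the 2 strands cannot be told apart if the counting ignored strand. Ddn, the dendritic protein dendrin, was the most abundant leader at 758, 795, 856 and 692 CPM against 0.717 to 4.15 CPM (median 1.75), a log2 difference of -8.45 (SE 0.51). Neither gene overlapped between regions, which was a condition for naming the leaders of both sides. Kcnv1 and Kcnj4, a silent modifier of Kv2 channels and an inward rectifier, differed by -7.92 and -7.61. Fezf2 and Tbr1, factors of deep layer neurons, differed by -7.44 and -7.02, and Crym, a thyroid hormone-binding protein, by -7.29. Chrm1, the M1 muscarinic receptor, read 204, 186, 212 and 205 CPM in cortex and 0.269 to 2.36 CPM (median 0.937) in cerebellum, a log2 difference of -7.40 (SE 0.40, adjusted p = 7.7e-07). Egr3, Krt20, Dkkl1, Icam5 (telencephalin, a dendritic adhesion molecule) and Rtn4rl2 (a Nogo receptor homolog) followed, at -7.00 to -7.52. Krt20 depended on the library, with 17, 19.1 and 18 CPM in 3 cortical libraries and 3.73 CPM in knockout 2.

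**Figure D3:**
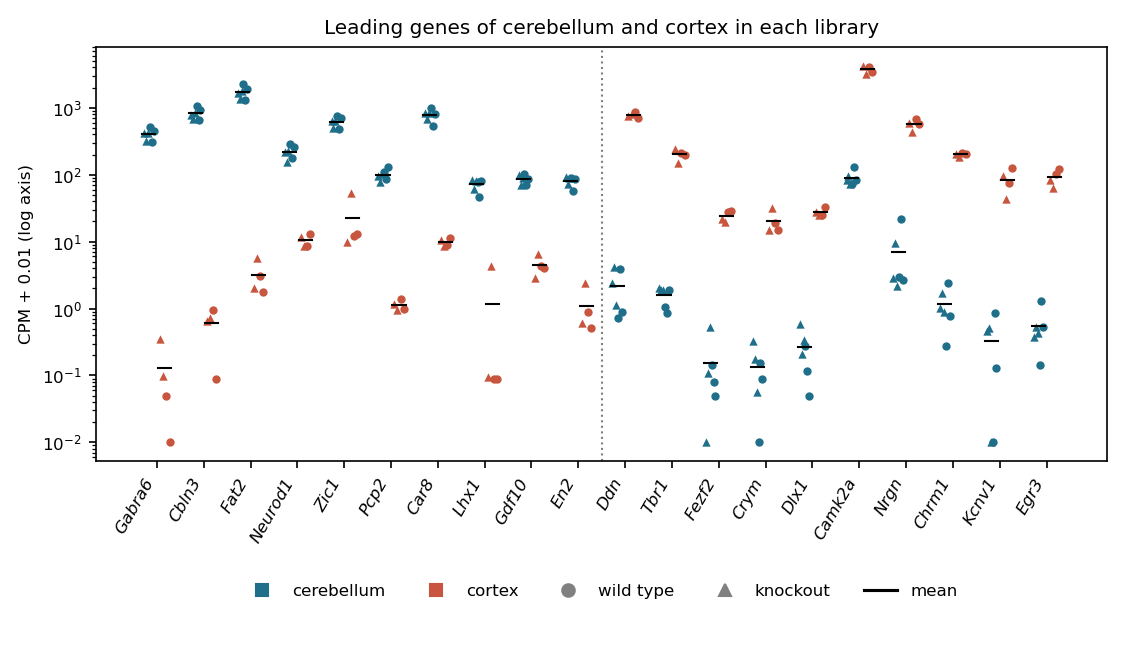
Level of 20 genes in each library (points, CPM + 0.01 on a log axis; triangles knockout, circles wild type; black lines, means). In all 20 the cerebellar and cortical points do not overlap, which the naming rule required of the leading genes among them. The 10 genes left of the dotted line are higher in cerebellum and the 10 right of it in cortex.

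The 250 bases upstream of the RefSeq start (GRCm38.p6, read on the gene's strand, 5′ to 3′) are shown for 2 genes of each region, to give the letters next to the start of a granule cell, a Purkinje cell and 2 forebrain excitatory genes, chosen after their values were seen. Capitals mark any match on either strand to CAGATG (an E-box that NeuroD factors bind), AGGTCA (a site of ROR nuclear receptors), TGACGTCA (the cyclic AMP element), TAATTA (a homeodomain core) or TATAAA. Gabra6 and Pcp2 are cerebellum-high, at chr11:42321073-42321322 and chr8:3625548-3625797 on the minus strand, and Neurod6 and Nrgn are cortex-high, at chr6:55681264-55681513 and chr9:37552746-37552995, also on the minus strand.
Gabra6: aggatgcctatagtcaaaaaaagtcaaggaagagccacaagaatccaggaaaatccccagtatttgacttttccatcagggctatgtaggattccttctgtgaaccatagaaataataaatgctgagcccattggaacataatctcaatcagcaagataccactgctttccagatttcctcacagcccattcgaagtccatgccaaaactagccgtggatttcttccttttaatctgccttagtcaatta
Pcp2: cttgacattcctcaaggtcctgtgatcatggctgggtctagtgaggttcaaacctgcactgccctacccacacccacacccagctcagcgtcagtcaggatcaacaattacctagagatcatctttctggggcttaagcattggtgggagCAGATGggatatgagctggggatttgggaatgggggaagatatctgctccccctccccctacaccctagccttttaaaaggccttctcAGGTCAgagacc
Neurod6: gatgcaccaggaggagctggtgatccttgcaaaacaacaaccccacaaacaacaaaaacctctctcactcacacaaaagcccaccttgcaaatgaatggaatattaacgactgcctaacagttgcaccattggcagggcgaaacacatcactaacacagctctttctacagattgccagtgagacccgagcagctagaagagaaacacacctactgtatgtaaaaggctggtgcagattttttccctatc
Nrgn: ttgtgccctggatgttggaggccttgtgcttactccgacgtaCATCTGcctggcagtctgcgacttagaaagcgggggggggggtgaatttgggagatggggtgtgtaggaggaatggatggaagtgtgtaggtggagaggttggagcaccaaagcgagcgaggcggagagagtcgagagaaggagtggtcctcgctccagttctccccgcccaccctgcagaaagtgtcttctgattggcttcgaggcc
Pcp2 held 1 CAGATG and 1 AGGTCA, Nrgn 1 CAGATG on the other strand, and Gabra6 and Neurod6 none of the 5 motifs. Among protein-coding genes with a promoter in the RefSeq table, CAGATG was in 13.0% of 469 that passed 2-fold in cerebellum, in 12.5% of 863 that passed in cortex and in 10.6% of all 12329. AGGTCA was in 14.3%, 10.3% and 10.9% of the same sets, and TATAAA in 8.1%, 10.1% and 6.9%. TGACGTCA was in 1.5%, 2.0% and 2.5%, and TAATTA in 4.7%, 3.0% and 2.7%. The median ratio of observed to expected CpG in these windows was 0.51 for the cerebellar set, 0.56 for the cortical set and 0.69 for all, and median GC content was 57.6%, 59.6% and 59.2%. These shares are descriptions and no test was made on them. In total 13759 of 24257 tested genes had a promoter in the table.

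The gene lists below were chosen with earlier results of these data known, so their counts are descriptions. Granule cell markers were mostly cerebellum-high. Of 26 tested, 23 were higher in cerebellum and 1 lower, 19 and 1 past 2-fold, with a median log2 fold change of 3.42. Beside Gabra6, Cbln3 and Fat2, the largest were Eomes at 6.11, Cbln1 at 5.90 and Zic1 at 4.89. Cbln1, the cerebellin that joins parallel fibre terminals to Purkinje cell spines, ran from 372 to 565 CPM (median 450) in cerebellum and read 3.44, 18.3, 6.03 and 3.34 CPM in cortex. The 18.3 CPM were in knockout cortex 2, and without the 3 libraries its log2 difference was 6.87. Zic1, a zinc finger factor of granule cell precursors, ran from 476 to 740 CPM (median 632) against 9.85, 53.9, 12.1 and 13.1 CPM. Again the high cortical value was in knockout 2. Eomes, a marker of unipolar brush cells, was above every cortical library but uneven, 12.9 to 51.9 CPM (median 18.8). Neurod1, a basic helix-loop-helix factor that granule cells keep, stood at 220 ± 50.2 CPM against 10.5 ± 2.26. The member that went the other way was Slc17a7, the vesicular glutamate transporter VGLUT1, at 211 to 347 CPM (median 259) in cerebellum and 812, 643, 898 and 878 CPM in cortex, a log2 difference of -1.60 (SE 0.12, adjusted p = 1.7e-06). Snap25, a general synaptic fusion protein, did not pass, with 1923 ± 83.1 and 2129 ± 395 CPM.

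Purkinje cell markers followed. Of 35 tested, 28 were higher in cerebellum and 3 lower, 25 and 2 past 2-fold, median 2.68. Pcp2, a G protein modulator, ran from 78.5 to 129 CPM (median 99.2) in cerebellum and read 1.16, 0.925, 1.38 and 0.970 CPM in cortex, a log2 difference of 6.50 (SE 0.19, adjusted p = 1.2e-08). Car8, a carbonic anhydrase-related protein that binds the inositol trisphosphate receptor, ran from 541 to 1007 CPM (median 816) against 10.5, 8.65, 8.98 and 11.3 CPM, a log2 difference of 6.31 (SE 0.22). Both genes were even across the 4 cortical libraries, unlike the developmental factors of the list. Lhx1, a LIM homeobox factor, ran from 47.0 to 83.3 CPM in cerebellum and read 4.33 CPM in knockout cortex 2 and at most 0.0860 CPM in the other 3. Its log2 difference was 6.13 with all libraries and 9.85 without the 3. Skor2, a transcriptional co-repressor, differed by 7.44 and 11.13 in the same 2 fits. Sycp1, a synaptonemal complex gene placed on this list from earlier results of these data, had 1171 reads in cerebellum and 2 in cortex. That is a ratio of 422 with a counting interval of 116 to 3485. Sycp1 is counted among the 28, where it is no independent evidence for the list. The other members were also chosen with earlier results of these data known. The 3 members lower in cerebellum were Bcl11a, a zinc finger factor of cortical neurons too (157 ± 40.1 CPM in cortex, 15.7 ± 2.46 in cerebellum), Itpka (68.1 ± 23.3 and 18.6 ± 4.22) and Stac2 (113 ± 16.9 and 43.3 ± 12.4). Gad1, which makes GABA, did not pass, with a log2 difference of 0.19 (SE 0.12). Pcp4, named for Purkinje cells, was read at only 1.81 ± 0.298 and 1.12 ± 0.400 CPM and did not pass. How strand and reads that match more than 1 gene were counted is not given, so its level is uncertain.

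The other cerebellar cell types were less one-sided. Of 21 markers of molecular layer and Golgi interneurons, 8 were higher in cerebellum and 7 in cortex, median 0.27. All genes gave 21.5% and 23%. Pax2, a factor of immature cerebellar interneurons, ran from 7.04 to 11.0 CPM (median 9.91) against 0.129, 0.895, 0.0788 and 0.155 CPM, and Tfap2b, an AP-2 factor of cerebellar GABAergic neurons, differed by 4.11. Slc6a5, the glycine transporter of Golgi and brainstem neurons, was uneven across the libraries of each region. It read 133 and 156 CPM in knockout and wild-type cerebellum 2, 30.9 to 33.8 CPM in the other 4, and 16.6 CPM in knockout cortex 2 against at most 0.233 CPM in the other cortical libraries. Its log2 difference was 4.56 (SE 1.49, adjusted p = 0.033), and 8.01 without the 3 libraries. The call was lost in 4 of the 10 fits without 1 library (without knockout cortex 1, knockout cerebellum 2, wild-type cortex 2 or wild-type cortex 3) and in the knockout libraries alone (2.94, adjusted p = 0.19). Pvalb, the calcium buffer parvalbumin, was at 318 ± 39.5 CPM in cerebellum and 50.2 ± 10.9 in cortex. Sst, a peptide of both Golgi cells and cortical interneurons, and Cacng3, an AMPA receptor auxiliary subunit, were cortex-high at -3.81 and -3.85. Gad1 and Gad2 did not pass, Gad2 at 160 ± 24.6 and 203 ± 117 CPM.

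Of 17 Bergmann glia markers, 9 were higher in cerebellum and 3 in cortex, median 0.58. The shares of all genes were 21.5% and 23%. Gdf10, a growth factor of Bergmann glia, ran from 69.9 to 101 CPM (median 88.1) and read 2.80, 6.59, 4.37 and 3.96 CPM in cortex, a log2 difference of 4.27 (SE 0.25, adjusted p = 3.6e-07). A2m, a protease inhibitor, ran from 64.1 to 90.7 CPM against 1.63, 14.8, 1.89 and 1.01 CPM, with the highest cortical value in knockout 2. Tnc, a matrix protein, and Hopx, a homeodomain-only protein, differed by 2.05 and 2.00. Cntnap3 and Npy, which cortical neurons also express, were cortex-high at -5.28 and -3.00. Gria1 and Kcnj10 did not pass, and Kcnj10, a glial potassium channel, varied from 163 to 524 CPM within cerebellum.

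Transcription factors that pattern the embryonic brain differed in level between the regions. Of 38 hindbrain and cerebellar factors tested, 28 were higher in cerebellum and 2 lower, 24 and 1 past 2-fold, median 3.37. Tlx3, a homeobox factor of glutamatergic hindbrain neurons, had 608 reads in cerebellum and 2 in cortex, a ratio of 219 with a counting interval of 60.3 to 1811. En2, the engrailed factor of the midbrain and hindbrain, ran from 57.8 to 93.0 CPM (median 87.3) and read 0.602, 2.39, 0.867 and 0.504 CPM in cortex, a log2 difference of 6.20 (SE 0.41, adjusted p = 2e-06). Barhl2, a BAR family homeobox factor, ran from 22.7 to 38.9 CPM against 0.0860, 1.40, 0.0394 and 0.0776 CPM. In each of the last 2 genes the highest cortical value was again in knockout 2. Lower in cerebellum was Pou3f1, a POU homeobox factor, at 2.02 ± 1.27 against 16.6 ± 1.95 CPM. Meis2 did not pass with all libraries (log2 difference -2.55, SE 0.97, adjusted p = 0.059) and was called with a replicate block (-2.86, adjusted p = 0.041). Without the 3 libraries, left out after their values were seen, its log2 difference was -4.72. Meis2 ran from 2.60 to 71.5 CPM within cerebellum. Foxp2 did not pass, at 13.3 ± 3.95 and 22.7 ± 13.7 CPM. Without the 3 libraries 32 members were higher in cerebellum, and the median was 4.65.

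Of 42 telencephalic factors tested, 34 were higher in cortex and 2 lower, 31 and 1 past 2-fold, median -2.90. The Dlx genes are homeobox factors of ventral forebrain GABAergic neurons. Dlx2 had 0 reads in the 6 cerebellar libraries against 454 in cortex, at least 210-fold higher in cortex (floor of 3 reads over the region), and Dlx5 had 3 reads against 457, a ratio of 212 with a counting interval of 71.9 to 1030. Dlx1 read 27.4, 25.0, 24.6 and 32.3 CPM in cortex and 0.0398 to 0.587 CPM (median 0.233) in cerebellum. The 2 members higher in cerebellum were Zfpm2, a GATA co-factor (94.7 ± 12.6 against 27.7 ± 3.20 CPM, log2 difference 1.77), and Neurod2 (100 ± 19.2 against 61.6 ± 9.32 CPM, 0.70). Cux1 and Bhlhe22 did not pass, Cux1 at 265 ± 25.3 and 263 ± 39 CPM, a log2 difference of 0.02 (SE 0.11).

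Cortical layer genes were mainly cortex-high but included genes that the cerebellum uses as well. Of 20 upper layer markers tested, 14 were higher in cortex and 3 in cerebellum, 12 and 1 past 2-fold, median -2.18. Lhx2, a LIM homeobox factor, read 53.9, 40.5, 49.5 and 59.1 CPM in cortex and 0 to 2.85 CPM (median 0.190) in cerebellum, a log2 difference of -6.06 that grew to -8.64 without the 3 libraries. Rspo1, a Wnt agonist, read 13.0, 4.89, 12.9 and 12.5 CPM, lowest in knockout 2. Rasgrf2, a Ras exchange factor, and Rorb, a nuclear receptor of layer 4, differed by -3.70 and -2.53, and Otof, the calcium sensor otoferlin, by -2.49. Lamp5, a vesicular protein of upper layer cells and neurogliaform interneurons, did not pass with all libraries (-3.35, SE 1.22, adjusted p = 0.051). It read 36.5 and 51.5 CPM in knockout and wild-type cerebellum 2 and 0.672 to 1.31 CPM in the other 4. Its log2 difference without the 3 libraries was -7.41, a description only, since those libraries were left out after their values were seen. The 3 members higher in cerebellum were Calb1, the calbindin that Purkinje cells hold in quantity (471 ± 85.8 against 87.8 ± 7.23 CPM), Kitl and Whrn.

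Of 27 deep layer markers tested, 17 were higher in cortex and 2 in cerebellum, 11 and 1 past 2-fold, median -1.91. Beside Fezf2, Crym and Tbr1 the largest were Drd1, Bcl11b and Rprm. Drd1, the D1 dopamine receptor, read 8.34, 51.1, 5.83 and 8.92 CPM in cortex, and Bcl11b, the factor CTIP2, read 83.6, 166, 64.4 and 90.5 CPM. Both are also striatal genes and both were highest in knockout 2. Rprm, a cell cycle inhibitor of layer 6, was even at 13.1, 17.8, 12.6 and 19 CPM against 0.180 to 1.55 CPM, a log2 difference of -4.63 (SE 0.41). The 2 members higher in cerebellum were Etv1, an ETS factor of layer 5 and of granule cells (410 ± 57.8 against 79.1 ± 12.1 CPM), and Sulf1, a heparan sulfatase (0.84, adjusted p = 0.041, not kept in 8 of the 10 fits without 1 library or in the knockout libraries alone).

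Forebrain excitatory neuron genes were mostly cortex-high. Of 28 tested, 25 were higher in cortex and 2 lower, 20 and 0 past 2-fold, median -3.32. Nrgn, the postsynaptic calmodulin-binding protein neurogranin, read 583, 435, 679 and 567 CPM in cortex and 2.13 to 21.6 CPM (median 2.92) in cerebellum, a log2 difference of -6.39 (SE 0.70). The 21.6 CPM were in wild-type cerebellum 2, and the difference was -7.82 without the 3 libraries. Emx1, a homeobox factor of dorsal telencephalon, read 16.1, 6.59, 13.6 and 11.2 CPM against 0.0451 to 0.264 CPM. Nptx1, a neuronal pentraxin, and Neurod2 were higher in cerebellum, at 0.59 and 0.70. Slc17a6, the vesicular transporter VGLUT2 of thalamus, brainstem and deep nuclei, did not pass, with values of 62.0 and 118 CPM in knockout and wild-type cerebellum 2, 113 CPM in knockout cortex 2, and 8.07 to 22.6 CPM in the other 7 libraries.

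**Figure D4:**
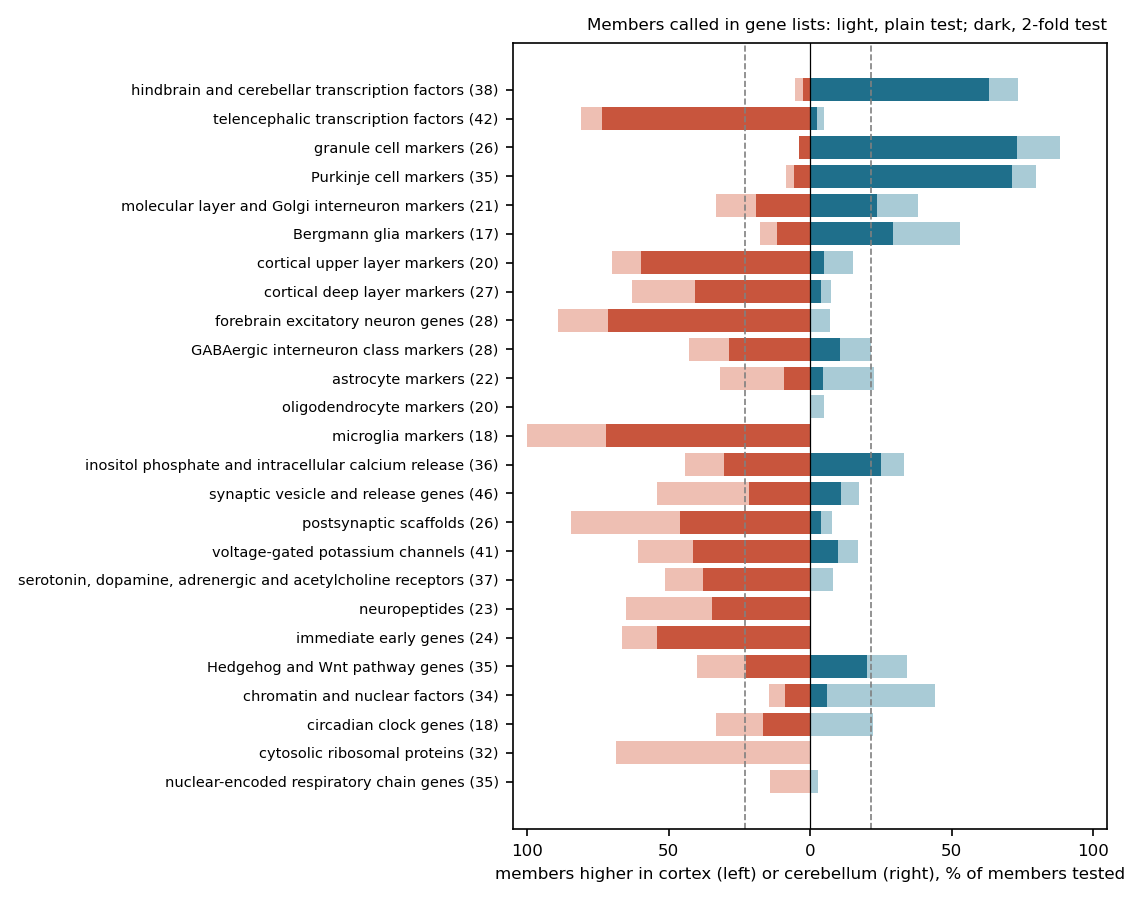
Share of the tested members of 25 gene lists (number tested in brackets) that were higher in cortex (left) or cerebellum (right), in percent; light bars the plain test, dark bars the 2-fold test, dashed lines the share over all genes in the plain test (23% and 21.5%). All 18 microglia markers are higher in cortex, 23 of 26 granule cell markers in cerebellum, and 1 of 20 oligodendrocyte markers passed.

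Genes read in 1 region alone were few. By the rule of at least 1 CPM in every library of a region and under 0.1 CPM in every library of the other, 16 of 48440 genes (0.033%) were detected in cerebellum alone and 17 (0.0351%) in cortex alone. The cerebellar set held 2 homeobox genes, Lbx1 and Tlx3, the calcium-binding protein gene Cabp2, Sycp1, the cytokine gene Iltifb, and pseudogenes and noncoding RNAs. Lbx1 had 790 reads in cerebellum and 1 in cortex. The cortical set held Dlx2, Dlx5 and Dlx6, the zinc finger factor Ovol2 (0 reads in cerebellum and 544 in cortex, at least 252-fold higher in cortex), Krt12, the RNA export factor Nxf7, and Wnt1. Wnt1, a ligand best known from the embryonic midbrain, had 222 reads in cortex and 1 in cerebellum. Without the 3 libraries the counts were 35 and 90, and the single library whose removal moved the sum most was knockout cortex 2, with 29 and 32.

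Neurotransmitter receptor families differed in which member carried the family. Shares below are of the family's summed CPM per kilobase of exon, with the SD over libraries. The exon length is that of all annotated exons of a gene together, not of the transcripts expressed. Genes with long or many annotated transcripts may thus be understated, and which member leads can depend on this scaling. In cortex Gria2 had more CPM than Gria1, at 853 against 480, but a smaller share, 27.2% against 39.5%. Of 33 families computed, the same member led in both regions in 13 and a different one in 20, and those described below were chosen after their values were seen. Among GluN2 subunits of the NMDA receptor, Grin2c made up 74.0% ± 6.8 in cerebellum and 7.3% ± 0.8 in cortex, and Grin2b 5.0% ± 3.4 and 57.2% ± 2.5. Grin2b, the GluN2B subunit of slow receptors, read 1771, 1858, 2037 and 1708 CPM in cortex and 55.0 to 189 CPM (median 65.9) in cerebellum, and Grin2c, the GluN2C subunit of granule cells, ran from 215 to 370 CPM (median 315) against 40.4, 50.2, 56.4 and 43.1 CPM. The 2 subunits thus moved in opposite directions, with log2 differences of -4.34 (SE 0.36) and 2.66 (SE 0.18), both past 2-fold. Grin2a was cortex-high at -1.61, and Grin2d did not pass. Among AMPA receptor subunits, Gria4 took 43.3% ± 1.7 in cerebellum and 14% ± 1.5 in cortex and was cerebellum-high at 1.64 (SE 0.11). Gria3 and Gria2 were cortex-high at -1.41 and -0.74, and Gria1 did not pass.

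Beside Gabra6, several alpha subunits of the GABA-A receptor differed in the other direction. Gabra4, an extrasynaptic subunit of forebrain, was cortex-high at -2.43 (SE 0.13), Gabra3 at -2.59 and Gabra2 at -1.62. Gabra5 was cortex-high at -3.19 (SE 1.05, adjusted p = 0.035) and at -6.11 without the 3 libraries. That call was lost in 7 of the 10 fits without 1 library, in either genotype alone and without the filter on low counts.

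The cerebellins split by region. Cbln1 and Cbln3 made up 46.3% ± 0.9 and 53.0% ± 1.4 of the family in cerebellum, and Cbln2 and Cbln4 61.1% ± 11.4 and 26.2% ± 5.3 in cortex. Cbln2 read 37.2, 28.2, 39.8 and 43.7 CPM in cortex and 0 to 14.1 CPM (median 0.255) in cerebellum. Its log2 difference was -3.46 (adjusted p = 0.041). That call was lost with a replicate block, without the filter on low counts, in either genotype alone and in 7 of the 10 fits without 1 library. The difference was -7.97 without the 3 libraries, which were left out after their values were seen.

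The genes that link metabotropic glutamate receptors to calcium stores also differed. Grm5, the receptor mGlu5, read 306, 333, 269 and 337 CPM in cortex and 9.47 to 72.0 CPM (median 10.4) in cerebellum, a log2 difference of -3.66 (SE 0.65). Of the Homer scaffolds that tie such receptors to calcium stores, Homer3 made up 69.0% ± 4.6 in cerebellum and 2.8% ± 1.1 in cortex, while Homer1 made up 20.8% ± 1.8 and 70.9% ± 9.5. Of the phospholipases C beta, Plcb4 made up 74.1% ± 1.9 and 29.8% ± 4.4, and Plcb1 15.8% ± 2.3 and 63.8% ± 5.0. Grm4, a presynaptic receptor of parallel fibres, was cerebellum-high at 3.77 (SE 0.24), at 397 to 643 CPM against 27.7 to 55.1. Of 36 genes of inositol phosphate signalling and calcium release, 12 were higher in cerebellum and 16 in cortex, 9 and 11 past 2-fold, median -0.15. All genes gave 21.5% and 23%, and 4.69% and 7.53% past 2-fold. Itpr1, the inositol trisphosphate receptor, had the highest cerebellar level of any gene past 2-fold, 2228 to 3718 CPM (median 3401) against 1266, 1083, 1092 and 1175 CPM. Car8, Homer3 and Atp2a3, a calcium pump of the endoplasmic reticulum, led the cerebellar side at 6.31, 4.25 and 4.18, and the cation channels Trpc6 and Trpc4 the cortical side at -3.62 and -3.21. Atp2a2, the widespread pump of that family, and Ryr2 did not pass, with Atp2a2 at 1084 ± 37.3 and 1034 ± 104 CPM.

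Calmodulin-dependent kinase II was carried by different subunits. Camk2a made up 78.7% ± 3.1 in cortex and 10.7% ± 2.0 in cerebellum, and Camk2b 13.1% ± 2.4 and 59.6% ± 5.4. Camk2a read 4227, 3163, 4068 and 3464 CPM in cortex and 72.5 to 130 CPM (median 83.3) in cerebellum, a log2 difference of -5.38 (SE 0.19, adjusted p = 2.3e-08). Camk2b itself differed little, at 747 ± 80.1 and 608 ± 51.9 CPM, a log2 difference of -0.30 that was lost without the 3 libraries (-0.15), in 5 of the 10 fits without 1 library and with a replicate block (-0.32, adjusted p = 0.09). Camk2d was cerebellum-high at 1.0, and Camk2g cortex-high at -1.12.

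**Figure D5:**
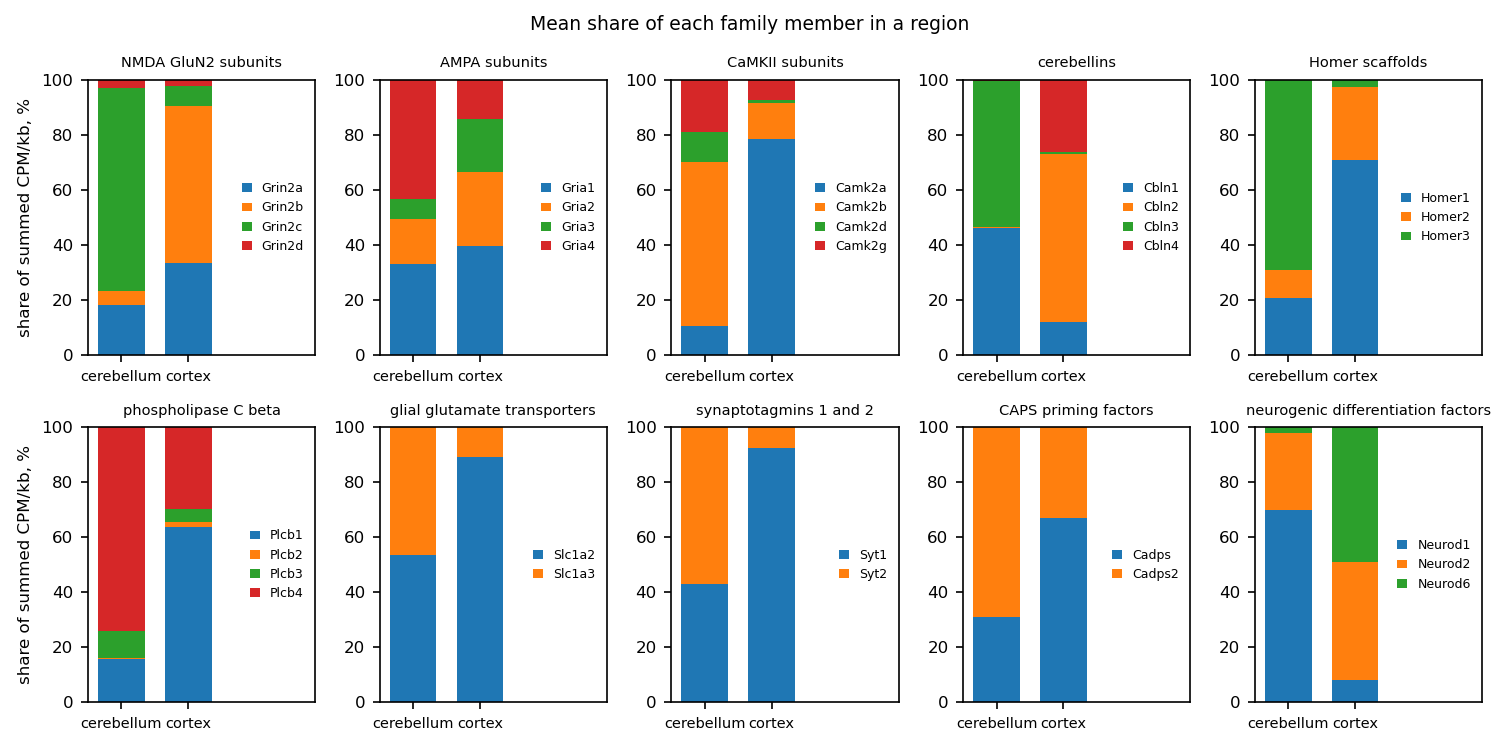
Mean share of each member in the summed CPM per kilobase of exon of 10 families, in percent, for cerebellum (n = 6) and cortex (n = 4). By this scaling, on all annotated exons of a gene, the leading member differs between regions in 9 of these 10 chosen families. Grin2c, for example, leads at 74.0% in cerebellum and Grin2b at 57.2% in cortex. Slc1a2 leads the glial transporters in both.

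Genes of transmitter release and of the postsynaptic density were more often cortex-high. Of 46 genes of synaptic vesicles and release, 8 were higher in cerebellum and 25 in cortex, 5 and 10 past 2-fold, median -0.40. Stx1a, the syntaxin of fast release, read 183, 123, 248 and 194 CPM in cortex and 1.52 to 6.89 CPM (median 2.15) in cerebellum, a log2 difference of -5.94 (SE 0.42). Syt5, Doc2a and Syt17, calcium sensors or their relatives, differed by -4.17, -3.42 and -3.33, Cplx3 by -3.86 and the spine apparatus protein gene Synpo by -3.59. The fast sensors differed in share: of Syt1 and Syt2, Syt1 made up 92.6% ± 2.4 in cortex and 43.0% ± 1.8 in cerebellum, and Syt2 7.4% ± 2.4 and 57.0% ± 1.8. Syt2 ran from 521 to 621 CPM (median 545) against 107, 187, 101 and 100 CPM. Of the CAPS priming factors, Cadps2 took 68.9% ± 8.6 in cerebellum and Cadps 67.2% ± 2.5 in cortex. Snap25 and Pclo, a scaffold of the active zone, did not pass.

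Of 26 postsynaptic scaffolds, 22 were higher in cortex and 2 in cerebellum, 12 and 1 past 2-fold, median -1.24. Dlgap2, a PSD-95-binding protein, read 194, 133, 226 and 184 CPM in cortex and 2.65 to 14.1 CPM (median 3.20) in cerebellum, a log2 difference of -5.00 (SE 0.51). Grasp, a receptor-trafficking scaffold, differed by -3.31. Arc was higher in every cortical library but unevenly, at 83.3, 54.3, 194 and 559 CPM against 12.5 to 20.7. The 2 cerebellum-high members were Homer3 and Syndig1, an AMPA receptor-associated protein (64.6 ± 4.54 against 37.0 ± 6.60 CPM). Shank3 did not pass, with 302 ± 47.4 and 357 ± 11.0 CPM.

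Of 41 voltage-gated potassium channel genes, 25 were higher in cortex and 7 in cerebellum, 17 and 4 past 2-fold, median -0.91. Kcnf1, a silent Kv5 subunit, read 101, 118, 112 and 120 CPM in cortex and 0.448 to 3.66 CPM (median 0.992) in cerebellum, a log2 difference of -6.16 (SE 0.49). The EAG family members Kcnh4, Kcnh3 and Kcnh5 differed by -5.86, -5.62 and -4.02, and Kcnq5, an M-current subunit, by -5.17. Past 2-fold in cerebellum were, among others, Kcng4, Kcnd2 and Kcnc1, at 3.25, 1.5 and 1.43. Kcnc2, a Kv3 channel like Kcnc1, went the other way at -3.37 (SE 0.80). Kcna2, an axonal Kv1 channel, did not pass, at 647 ± 85.5 and 585 ± 44.2 CPM. Among inward-rectifier, two-pore and calcium-activated channels 10 of 24 were cortex-high, led by Kcnj4. The 7 cerebellum-high ones were led by Kcnk10 at 3.04 and Kcnj12 at 2.53. All genes gave 23% cortex-high and 21.5% cerebellum-high.

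Receptors and ligands of slow modulation were more often cortex-high. Of 37 serotonin, dopamine, adrenergic and acetylcholine receptors, 19 were higher in cortex and 3 in cerebellum, 14 and 0 past 2-fold, median -1.86. Beside Chrm1 and Drd1, the muscarinic receptors Chrm4 and Chrm3 differed by -4.80 and -4.67. Htr2a, the 5-HT2A receptor of cortical pyramidal cells, read 35.6, 43.8, 37.1 and 25.4 CPM in cortex and 0.757 to 6.26 CPM (median 0.868) in cerebellum, a log2 difference of -3.91 (SE 0.67). Cerebellum-high members included Drd4 at 0.684 ± 0.237 against 0.257 ± 0.101 CPM and the nicotinic subunit gene Chrnb2 at 94.2 ± 7.93 against 65.5 ± 15.7 CPM. Chrm2 and Htr2c did not pass. Htr2c stood at 82.3 CPM in knockout cortex 2 and at 12.8 to 16.2 CPM in the other 3.

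Of 23 neuropeptide genes tested, 15 were higher in cortex and 0 in cerebellum, 8 past 2-fold, median -2.67. Vip, the vasoactive intestinal peptide of a cortical interneuron class, read 39.1, 18, 21.9 and 31.1 CPM in cortex and 0 to 1.65 CPM (median 0.0448) in cerebellum. Cck, cholecystokinin, was the most even, at 145, 163, 183 and 156 CPM against 9.75 to 15.8 CPM (median 11.6), a log2 difference of -3.72 (SE 0.13, adjusted p = 2.4e-08). Tac2, Pdyn and Grp differed by -5.77, -4.55 and -3.96. Sst ran from 0.628 to 21.8 CPM within cerebellum and differed by -6.29 without the 3 libraries. Scg2, a granin, and Penk, proenkephalin, did not pass, and Penk stood at 243 CPM in knockout cortex 2 and at 11.5 to 27.3 CPM in the other 3. Among 27 neuropeptide and opioid receptors, 15 were cortex-high, led by Cckbr at -4.70 and the somatostatin receptor Sstr4 at -4.57, and 3 were cerebellum-high. Those 3 were Vipr2, the second receptor for vasoactive intestinal peptide (15.8 to 44.7 CPM against 0.301, 5.58, 0.906 and 0.388), the cannabinoid receptor Cnr1 (473 ± 77.8 against 171 ± 29.7 CPM) and Crhr1 (57.6 ± 13.5 against 21.1 ± 7.03 CPM).

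Immediate early genes, which neurons switch on with activity, were cortex-high in 16 of 24 and cerebellum-high in 0, with 13 past 2-fold and a median of -1.94. Without the 3 libraries 8 were past 2-fold, and Arc, Egr2 and Fosb lost that call. Their summed level was 328 to 597 CPM in cerebellum, 961 to 1474 CPM in 3 cortical libraries and 2922 CPM in wild-type cortex 3. Egr3, the factor with the largest difference, read 83.8, 63.7, 102 and 120 CPM in cortex and 0.134 to 1.30 CPM (median 0.468) in cerebellum. Egr1 read 162, 137, 235 and 466 CPM against 30.2 to 37.5 CPM (median 32.8). Nptx2, Fosb and Egr2 differed by -4.88, -3.38 and -3.13, and Egr2 read 31.0 CPM in wild-type cortex 3 and 2.36 to 5.95 CPM in the other 3. Fos itself did not pass, at 6.92, 9.40, 19.3 and 52.2 CPM in cortex and 3.74 to 37.4 CPM (median 14.6) in cerebellum, and neither did Jun or Nr4a3. Nr4a3 was called with a replicate block (-0.83, adjusted p = 0.0025). Time and handling of the mice before the tissue was taken are not given in the labels.

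Microglia markers formed the list with every member on 1 side. All 18 were higher in cortex, against 23% of all genes, and 13 past 2-fold, against 7.53%. Their median was -1.61, and in all 18 the regions did not overlap, against 34.7% of all genes. The summed level of the 18 was 115 to 221 CPM in cerebellum and 404 to 620 CPM in cortex. Fcrls, an Fc receptor-like scavenger receptor, read 9.29, 13.0, 17.7 and 11.0 CPM in cortex and 0.743 to 4.08 CPM (median 1.71) in cerebellum, a log2 difference of -2.68 (SE 0.43, adjusted p = 0.00053). Cx3cr1, the fractalkine receptor, read 36.5, 56.6, 40.2 and 34.1 CPM against 8.47 to 17.2 CPM (median 10.3). Siglech, Selplg, Tmem119 and Aif1 differed by -2.14, -2.13, -1.92 and -1.81. The smallest difference of the list was Gpr34 at -0.80 (SE 0.18). Without the 3 libraries all 18 stayed cortex-high, with a median of -1.80.

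Of 22 astrocyte markers, 5 were higher in cerebellum and 7 in cortex, 1 and 2 past 2-fold, median -0.03. Over all genes 21.5% were higher in cerebellum and 23% in cortex, so the counts are not read as a result about the list. Slc1a2, the glutamate transporter GLT-1, had the highest cortical level of any gene past 2-fold, 5386, 5933, 5697 and 5405 CPM against 1175 to 2173 CPM (median 1209), a log2 difference of -1.94 (SE 0.19). Slc1a3, the transporter GLAST of Bergmann glia, was cerebellum-high at 0.87 (SE 0.12) and made up 46.5% ± 9.9 of the pair in cerebellum and 10.7% ± 0.4 in cortex. S100b and Aqp4, a calcium-binding protein and the water channel of astrocyte endfeet, were cerebellum-high at 1.47 and 1.35. Mfge8 and Clu, secreted proteins, were cortex-high at -1.97 and -1.02. Etnppl, a phospholyase, was cerebellum-high at 1.04. Gja1, the connexin of astrocyte gap junctions, and Gfap did not pass, Gja1 at 143 ± 36.5 and 139 ± 21.1 CPM. Of 20 oligodendrocyte markers 1 was higher in cerebellum and 0 in cortex, and 5 and 1 without the 3 libraries. Mbp, myelin basic protein, read 2195 and 4342 CPM in knockout and wild-type cerebellum 2, 1099 to 1470 CPM in the other 4, and 1150, 3160, 1824 and 891 CPM in cortex, so the regions overlapped.

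Growth and guidance pathways held large differences in both directions. Of 35 Hedgehog and Wnt pathway genes, 12 were higher in cerebellum and 14 in cortex, 7 and 8 past 2-fold, median -0.45. The largest of the list, which does not hold Wnt1, were cortex-high: Rspo1, Wnt2, Wnt10a and Wnt9a, ligands or their agonists, at -5.27, -4.93, -4.80 and -4.35, Dkk3, a secreted Dickkopf family protein, at -3.98, and Rspo2 at -3.53. Dkk3 read 259, 189, 264 and 285 CPM in cortex and 7.17 to 26.3 CPM (median 11.7) in cerebellum. The shares of all genes were 21.5% cerebellum-high and 23% cortex-high. Of 21 ephrins and Eph receptors, 4 were cerebellum-high, close to the share of all genes, and 11 cortex-high. Epha1 led the first at 3.32, with 17.4 to 31.3 CPM (median 24.4) against 2.06, 2.83, 2.64 and 2.09, and Ephb6 and Epha4 led the second at -3.23 and -3.14.

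Of 34 chromatin and nuclear factors, 15 were cerebellum-high and 5 cortex-high, median 0.15, against 21.5% and 23% of all genes. Past 2-fold were 2 and 3, close to the 4.69% and 7.53% of all genes. A replicate block gave 11 and 4 in the plain test, the wild-type libraries alone 8 and 5, and the knockout ones 9 and 5. Chd7, a remodelling factor with a role in granule cell development, ran from 405 to 762 CPM (median 669) in cerebellum and read 31.5, 49.1, 33.0 and 28.8 CPM in cortex, a log2 difference of 4.16 (SE 0.22, adjusted p = 2.1e-07). Ezh2, the methyltransferase of Polycomb complex 2, and Tet1, a 5-methylcytosine oxidase, followed at 1.41 and 1.30. The related remodellers Chd5 and Chd3 were cortex-high at -2.38 and -1.65, as was Hdac9 at -1.54. Chd5 varied within cerebellum, from 42.4 to 161 CPM. Kmt2a did not pass, at 553 ± 65.8 and 507 ± 89.3 CPM. Of 18 circadian clock genes, 4 were cerebellum-high and 6 cortex-high, 0 and 3 past 2-fold. Over all genes 21.5% and 23% were so in the plain test, and the counts are not read as a result about the list. The largest difference was in Npas2, the forebrain partner of Bmal1, at 88.7, 86.5, 77.3 and 77.6 CPM in cortex against 4.75 to 8.63 CPM (median 6.44). Its paralog Clock did not pass, at 194 ± 11.1 and 169 ± 15.9 CPM. Of 32 cytosolic ribosomal protein genes, 22 were cortex-high, against 23% of all genes, and 0 cerebellum-high, none past 2-fold, median -0.58. The wild-type libraries alone gave 7 cortex-high (median -0.35), the knockout ones 20 (-0.79), and the libraries without the 3 gave 29 (-0.49). Summed over the list, knockout cortex 2 read 3989 CPM and the other cortical libraries 2551 to 2825. Cerebellar sums ran from 1749 to 2508 CPM, highest in wild-type cerebellum 2. Nuclear-encoded genes of the respiratory chain mostly did not pass, with 1 of 35 cerebellum-high, 5 cortex-high and a median of -0.04.

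Whether the region difference depended on genotype was tested by the interaction term of the same 10 libraries. By edgeR's quasi-likelihood test 0 of 24257 genes (0%) passed, with 774 genes under an unadjusted p of 0.05, and DESeq2 also gave 0 with 851. The 3 smallest p-values belonged to the unannotated genes Gm43150 and Gm10705 and to Cyp2j9, a cytochrome P450, each with an adjusted p of 0.91. Cyp2j9 stood at 50.4 and 47.8 CPM in knockout and wild-type cerebellum and at 53.0 and 25.6 CPM in knockout and wild-type cortex. A count of 0 with 2 cortical libraries per genotype does not show that the region difference was the same in both genotypes. Without knockout cortex 1, which left knockout cortex 2 as the only knockout cortical library, 220 genes passed, 79 with a positive and 141 with a negative term.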

How the data were processed

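The authors deposited 1 table of whole-number read counts per gene for 48440 genes, with Ensembl identifiers. Reads were handled with Trim Galore 0.6.4, cutadapt 2.10, STAR 2.7.3a and featureCounts 2.0.1 on GRCm38.p6 (mm10), per the submitters' processing notes; strand, multi-mapping and annotation release are not stated in the labels or the file header. Symbols came from an annotation matched by identifier (99.2%). Counts of 10 libraries were fitted in edgeR 4.0.16 (R 4.3.3): filterByExpr left 24257 genes, TMM scaling, robust quasi-likelihood fit on genotype and region, 7 residual degrees of freedom, Benjamini-Hochberg adjustment at 0.05, glmTreat for 2-fold, and an interaction term. The fit was tested on simulated data. RLE and upper-quartile factors, no filter, all 14 libraries, no genotype term, a replicate block, single genotypes, DESeq2 1.42.0, limma 3.58.1 voom and each library left out were alternatives. Same-numbered cerebellum and cortex libraries deviated together (r 0.16 to 0.42 over 18920 genes), so the block was fitted as an alternative, and the main p-values do not use it. Pairing is not established. Knockout cerebellum 3 deviated with knockout cortex 1 (r 0.35) more than knockout cerebellum 1 did (r 0.22). The r of 0.42 is between knockout cerebellum 2 and knockout cortex 2, both among the 3 libraries left out above. Since each genotype has 2 cortical libraries, their deviations mirror each other, and a cerebellar library that deviates with 1 deviates against the other. In the block, knockout cerebellum 3 and wild-type cerebellum 1 have no cortical partner and add nothing to the region term.

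Members and gene lists were chosen with earlier results of these data known. Genes were named by rule: up to 15 per direction with the largest difference past 2-fold, at least 10 CPM in the higher region and no overlap; per list, 6 members with the largest differences and 2 of high level that missed; 8 per region detected there alone; and 3 for the interaction. Members that went against their list, genes of families, further genes detected in 1 region (Cabp2, Dlx6 and Wnt1 among them) and genes showing other tissue were named after their values were seen. With 0 reads in a region, a fold is a lower bound from a floor of 3 reads; with 1 to 3 reads, a ratio has a 95% counting interval, which covers counting error only. Some genes that these rules name are not reported here.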

Additional observations from a re-analysis of the deposited data

Results flagged for a closer look

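The gene named in each sentence below had 1 library of a region set apart from the others of that region, by a gap to its nearest neighbour that was large against the region's whole range. Of 393 groups of libraries looked at, 56 held such a library, where chance gives about 1 in 20. Some of these genes were named because of their values in these libraries, so the count is a description and no test. Knockout cortex 2 was the library in 31 of them and wild-type cerebellum 2 in 13. No other library had more than 5.

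Knockout cortex 2 was highest in genes that striatal neurons express, in CPM: Adora2a 33.1, Drd1 51.1, Drd2 44.5, Gad2 378, Meis2 190, Pdyn 39.7 and Penk 243. It was also highest in genes of thalamus, midbrain and hindbrain, with CPM of Barhl2 1.4, Lhx1 4.33, Prkcd 99.5, Slc17a6 113, Tcf7l2 79.8, Tfap2b 6.74 and Zic1 53.9. Receptor and peptide genes highest there were Chrnb2 88.9, Grin2d 27.3, Htr2c 82.3, Scg2 468, Tac2 7.79 and Vipr2 5.58 CPM. The others were A2m 14.8, Chat 7.55, Kcng4 24.9, Slc6a5 16.6, Sulf1 38.8, Syt2 187 and Ttr 513 CPM. Genes lowest in that library were Gria3 270, Krt20 3.73, Rspo1 4.89 and Ryr2 562 CPM.

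Wild-type cerebellum 2 was highest in the myelin and glial genes Gfap 200 and Mbp 4342 CPM. Other genes highest there were Bcl11a 20.5, Chrm3 10.9, Egr3 1.3, Ephb6 25.2, Foxp2 20.7, Icam5 1.93, Nrgn 21.6, Stx1a 6.89 and Tcf7l2 46.7 CPM. Genes lowest in it were Clock 172 and Prkcd 38.5 CPM. The part that other tissue in these libraries had in the region differences was not tested beyond the values without them.

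Wild-type cortex 3 was highest in the activity-regulated genes Egr2 31.0, Fosb 50.2 and Nr4a3 90.8 CPM and in Kmt2a at 640 CPM, and lowest in Kcna2 519 CPM. Wild-type cortex 2 was highest in Doc2a 15.2 CPM and lowest in Bhlhe22 29.2 CPM. In cerebellum, knockout 1 was highest in Neurod6 6.27 and Trpc6 3.11 CPM, wild type 3 in Eomes 51.9 and Nr4a3 63.6 CPM, and wild type 1 was lowest in Stac2 19.6 CPM.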

How the results depend on the processing

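Against 10796 genes that differed and 2964 past 2-fold, the knockout libraries alone gave 6077 and 1676 and the wild-type ones 5782 and 1945, with fewer libraries in each. Leaving out 1 library in turn gave 9265 to 11650 and 2543 to 3437. A bound of 4-fold in place of 2-fold left 971. A replicate block gave 8419 and 2283. It lost Camk2b, Cbln2 (-3.83) and Cbln4 (-3.07) and gained Hoxb5, Meis2, Nr4a3 and Ttr (4.96), and it changed no other plain call of a named gene. In the 2-fold test it lost 7 of 155 named genes (Arc, Egr2, Ezh2, Grp, Kcnh5, Rasgrf2 and Tnc) and gained 3. RLE factors changed none of the 219 named calls, DESeq2 gained 2 and lost 0, and limma voom gained 3 and lost 0. The wild-type libraries alone lost 24 named calls, among them Grm5, Htr2a, Vip, Gabra2, Gabra3, Kcnc2 and Lhx2, the knockout ones lost 14, and leaving out 1 library lost 1 to 6. Without a filter on low counts Cbln2, Cbln4, Gabra5, Slc6a5 and Sulf1 were lost. Genes detected in 1 region numbered 33, 34 to 61 without 1 library (61 without knockout cortex 2, 43 without wild-type cerebellum 2) and 125 without the 3 libraries. The interaction gave 0 to 220 genes without 1 library, 220 without knockout cortex 1. Without the 3 libraries Camk2b was lost and Chat turned from 0.05 to -6.52. Gained were 12 named genes, among them Lamp5, Meis2, Chrm2, Gad1, Pclo, Pcp4, Penk, Ryr2, Scg2 and Slc17a6. Those libraries were left out after their values were seen, so these changes are descriptions, and their cause was not tested. Genes under about 1 CPM rest on few reads. What size of interaction could have been called was not tested.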

Other observations

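The following gene groups are read against 23% of all genes cortex-high and 21.5% cerebellum-high. Of 31 genes of neurexin partners and synaptic adhesion, 23 were higher in cortex and 3 in cerebellum, with a median log2 difference of -0.71. Of 34 semaphorins, plexins, slits and netrins, 20 were cortex-high and 8 cerebellum-high, median -0.92. Cyclic nucleotide enzymes were cortex-high in 17 of 28 and cerebellum-high in 7, median -0.69. Classical cadherins were evenly divided, 7 of 19 in each direction. Of 13 markers of oligodendrocyte precursors, 4 were cortex-high and 2 cerebellum-high, and of 23 endothelial and mural markers, 4 were cortex-high and 0 cerebellum-high. The 6 of 13 precursor markers that differed are close to the 44.5% of all genes that did, and the vascular counts are under the shares of all genes in both directions.

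By gene type, 9.0% of 976 long intergenic noncoding RNAs passed 2-fold in cerebellum and 13.0% in cortex, against 3.9% and 7.3% of 15952 protein-coding genes. Protein-coding genes past 2-fold more often spanned over 100 kb of the genome: 22.3% of the 628 that were higher in cerebellum and 27.0% of the 1171 that were higher in cortex did so, against 14.9% of all tested. These shares are descriptions with no test.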
